A study of Mus musculus with 6 samples.

Results

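Interferon-stimulated genes were examined in heart ventricles of mice with an inducible cardiomyocyte knockout of the transcription factor Tead1 (icKO) and of controls. The set holds 35 genes chosen by name, 25 of the type I kind and 10 of the kind that interferon-gamma drives most strongly. Probes were matched through the RefSeq accession that the array gives them. This found probes for 33 of the 35 genes, 23 type I and 10 interferon-gamma type, among 22278 features tested on the array. Mx1 and Mx2 were not matched and are not analysed here. All 33 matched genes were well above background on all 6 arrays, so none of them entered the test through one group alone.

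The series compared 3 Tead1 icKO mice with 3 control mice. The icKO mice had the genotype Tead1F/F with the Myh6-CreER transgene, a Cre recombinase made in cardiomyocytes that tamoxifen activates, and were given tamoxifen. The control mice carried Tead1 flox and were given tamoxifen too. Their labels name no Cre, so effects of Cre itself and of losing Tead1 cannot be told apart. All were males on the C57bl/6j background aged 11 to 12 weeks, and each array holds total RNA of 1 heart ventricle sample, labelled as a biological replicate. The RNA is that of the whole tissue, in which the Myh6 promoter drives Cre in cardiomyocytes only.

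Type I interferons signal through Ifnar1 and Ifnar2, and a complex that holds Stat2 and Irf9 then binds the interferon-stimulated response element. Interferon-gamma signals through Ifngr1 and Ifngr2, and many of the genes it induces carry the gamma-activated site. The products of the induced genes block viral replication, sense foreign nucleic acid, tag and trim proteins and load peptides for antigen presentation. In the heart they are made by cardiomyocytes, by vascular and stromal cells and by resident and infiltrating leukocytes.

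Upstream sequence is shown for 3 genes of each kind, because the elements that both pathways bind lie there. The sequences are the 180 bases before the annotated start, 5′ to 3′ on the gene's own strand, from RefSeq on build GRCm38.p6. Capitals mark the letters GAAANNGAAA or TTTCNNTTTC, the core of the response element on either strand, and TTCNNNGAA, the core of the gamma-activated site, which reads the same on both strands.
Isg15 chr4:156200819-156200998 (- strand): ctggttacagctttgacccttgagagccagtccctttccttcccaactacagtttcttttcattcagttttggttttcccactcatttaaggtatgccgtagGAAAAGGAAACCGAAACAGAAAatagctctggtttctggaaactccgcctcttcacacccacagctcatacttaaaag
Ifit1 chr19:34640709-34640888 (+ strand): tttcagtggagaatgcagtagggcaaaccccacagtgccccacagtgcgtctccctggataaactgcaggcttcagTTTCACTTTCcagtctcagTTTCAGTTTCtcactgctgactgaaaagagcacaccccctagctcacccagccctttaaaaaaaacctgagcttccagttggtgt
Ifit3 chr19:34583349-34583528 (+ strand): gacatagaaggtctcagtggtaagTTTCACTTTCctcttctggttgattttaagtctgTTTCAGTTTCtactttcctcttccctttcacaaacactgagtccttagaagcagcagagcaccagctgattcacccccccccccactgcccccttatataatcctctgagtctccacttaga
Irf1 chr11:53769834-53770013 (+ strand): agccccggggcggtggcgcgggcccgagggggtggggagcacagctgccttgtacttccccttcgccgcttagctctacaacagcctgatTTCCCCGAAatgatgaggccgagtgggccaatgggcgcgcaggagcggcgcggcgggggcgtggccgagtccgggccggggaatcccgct
Gbp2 chr3:142620483-142620662 (+ strand): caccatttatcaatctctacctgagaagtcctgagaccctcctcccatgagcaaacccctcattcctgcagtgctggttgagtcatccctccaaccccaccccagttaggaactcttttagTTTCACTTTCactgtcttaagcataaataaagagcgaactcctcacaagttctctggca
Igtp chr11:58199376-58199555 (+ strand): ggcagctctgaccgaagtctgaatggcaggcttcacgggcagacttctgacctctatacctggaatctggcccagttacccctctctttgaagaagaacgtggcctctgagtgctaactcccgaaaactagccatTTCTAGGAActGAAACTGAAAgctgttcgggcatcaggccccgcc
The capitals show overlapping response element cores in Isg15, a pair of separate ones in Ifit1 and in Ifit3, and 1 in Gbp2. Irf1, for which the table holds 2 start windows and the one with more matches is shown, has a gamma-activated core only, and Igtp has both cores next to each other.

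The same letters were searched on both strands in the window from 250 bases before to 50 bases after the start, which the RefSeq table holds for 25 of the 35 genes. The response element core was found in 8 of 16 type I genes and in 5 of 9 interferon-gamma type genes (55.6%), against 1079 of 27025 genes (3.99%). The type I genes with it were Stat2, Isg15, Ifit1, Ifit3, Ifih1, Rsad2, Oas1a and Bst2. The gamma-activated core was found in 4 of 16 type I genes (25.0%) and in 4 of 9 interferon-gamma type genes (44.4%), against 2582 of 27025 genes (9.55%). These 4 interferon-gamma type genes were Irf1, Gbp7, Igtp and Psmb8. A match is a run of letters and not a measured binding site.

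The array facts that bear on the values are few. Each array held 62976 spots, between 47.7% and 50.9% of probes were well above background, and no spot was saturated. Before scaling, the 75th percentile of the signal ranged over 292 to 348 on icKO arrays and 189 to 233 on control arrays. Arrays correlated at 0.989 to 0.994 within icKO, 0.991 to 0.993 within controls and 0.957 to 0.967 between the groups. Levels below are log2 signals minus the array's own 75th percentile, so 0 is that percentile and one unit is a doubling. A level is read across arrays for 1 probe and is not compared between probes. The probe used for Tead1 differed by -0.40 ± 0.11 (SE, n = 3 each; limma, Benjamini-Hochberg adjusted p = 0.0300), and with spike-in scaling by -0.05 (not called), and where it lies relative to the deleted part is not known here.

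Most of the interferon-stimulated genes did not pass the test between icKO and control ventricles. Irf7, the master regulator of the type I response, and Ifit3, an antiviral tetratricopeptide protein, were higher in icKO, and the other 31 genes were not called (limma, Benjamini-Hochberg adjusted p under 0.05). That is 2 of 33 genes, where 44.8% of all features were called, 16% called higher and 28.7% called lower in icKO. No gene of the set was called lower. The 3 icKO arrays lay apart from the 3 controls for Irf7, Ifit3 and Zbp1, all with icKO above, and the groups overlapped for the other 30 genes, where 59.3% of all features did not overlap. The median log2 difference, icKO minus control, was 0.07 over the 33 genes, 0.12 over the 23 type I genes and -0.20 over the 10 interferon-gamma type genes. The median over all features was -0.14. The difference was positive in 16 of 23 type I genes and in 3 of 10 interferon-gamma type genes, against 8791 of 22278 features. In bulk tissue, more cells of a type and more RNA per cell cannot be told apart.

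**Figure D1:**
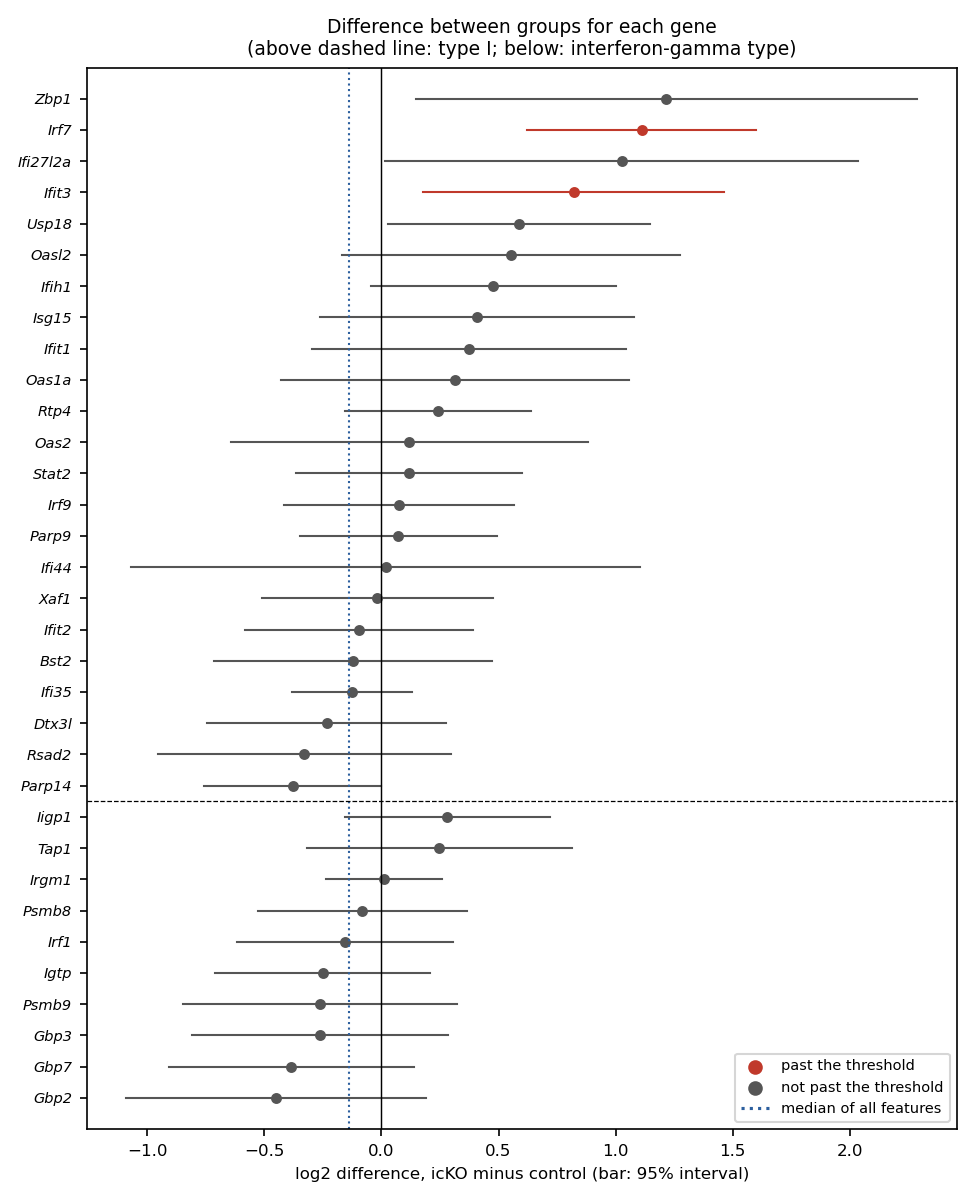
Log2 difference of each of the 33 genes, icKO minus control (x axis), with its 95% interval from limma (n = 3 each). Red marks the 2 genes past the threshold, Irf7 and Ifit3, and the dotted line the median of all features at -0.14. Genes above the dashed line are type I, and those below it are interferon-gamma type.

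The type I regulators were not called together. Irf7 stood at -0.13, 0.53 and 0.07 in icKO hearts 1, 2 and 3, against -0.92, -1.20 and -0.74 in control hearts 1, 2 and 3. Every icKO heart was above every control. Its mean was 0.15 ± 0.34 in icKO and -0.96 ± 0.23 in controls (SD, n = 3 each), a log2 difference of 1.11 ± 0.20 (SE; 95% interval 0.62 to 1.60; adjusted p = 0.00662), or 2.16-fold. Irf7 was also called under each of the 20 other settings tried, with differences between 0.81 and 1.46. Irf9, the DNA-binding partner of Stat2, stood at 1.83, 2.54 and 2.0 in icKO, against 2.12, 1.85 and 2.18 in controls. Stat2, its partner in the complex, stood at 1.61, 2.29 and 1.64 in icKO, against 1.64, 1.69 and 1.86 in controls. Only icKO heart 2 lay above the controls for these last genes. The difference was 0.08 ± 0.20 for Irf9 (adjusted p = 0.785) and 0.12 ± 0.20 for Stat2 (adjusted p = 0.656), with 95% intervals from -0.41 to 0.57 and from -0.36 to 0.60.

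Among the Ifit genes, whose products bind viral RNA ends or the proteins that do, only Ifit3 passed. Ifit3 stood at 1.42, 2.20 and 1.40 in icKO, against 0.89, 0.51 and 1.15 in controls. All icKO hearts were above the controls, and heart 2 was the highest. Its mean was 1.67 ± 0.45 in icKO and 0.85 ± 0.32 in controls (SD), a difference of 0.82 ± 0.27 (SE; adjusted p = 0.0455), or 1.77-fold. The call was lost without any 1 array: the adjusted p was 0.0554, 0.0819 and 0.0561 without icKO hearts 1, 2 and 3, and 0.0980, 0.123 and 0.0518 without control hearts 1, 2 and 3, with differences between 0.56 and 0.97. Keeping all dim probes in the fit also ended it (adjusted p = 0.134). Ifit1, which binds RNA lacking cap methylation, stood at -1.42, -0.90 and -1.85 in icKO, against -1.82, -2.07 and -1.40 in controls. Ifit2 stood at -1.14, -0.69 and -1.26 in icKO, against -1.21, -0.93 and -0.67 in controls. The groups overlapped for both genes, with differences of 0.38 ± 0.28 (adjusted p = 0.308) for Ifit1 and -0.10 ± 0.20 (adjusted p = 0.718) for Ifit2.

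Zbp1, Ifi27l2a and Usp18 had wide differences that did not pass. Zbp1, a sensor of left-handed nucleic acid, stood at -1.34, 0.26 and -0.81 in icKO, against -1.70, -2.41 and -1.44 in controls. The groups did not overlap, but icKO heart 1 lay close to control heart 3. The difference was 1.22 ± 0.44 (SE; adjusted p = 0.0653), and a second Zbp1 probe, above background on 2 of 3 icKO and 1 of 3 control arrays, gave 0.97. Without icKO heart 1 it was called, at 1.57 (adjusted p = 0.0350). Ifi27l2a, a small mitochondrial protein gene, stood at 5.37, 6.58 and 5.80 in icKO, against 5.45, 4.16 and 5.06 in controls. Here icKO heart 1 fell just under control heart 1, and the difference of 1.03 ± 0.42 did not pass (adjusted p = 0.0893). Usp18, the protease that removes Isg15 from proteins and dampens the receptor, stood at 0.27, 0.84 and 0.32 in icKO, against -0.23, -0.39 and 0.29 in controls. Heart 1 of the icKO group lay under control heart 3 by a margin within the spread, and the difference of 0.59 ± 0.23 had an adjusted p of 0.0810, or 0.79 and 0.0372 without control heart 3.

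Antiviral effectors with positive differences overlapped between the groups. Isg15, the ubiquitin-like modifier, stood at 2.85, 3.60 and 2.82 in icKO, against 2.83, 2.25 and 2.97 in controls. Its icKO hearts 1 and 3 lay among the controls. The difference was 0.41 ± 0.28 (adjusted p = 0.270), and a second probe gave 0.30. Oasl2, a member of the oligoadenylate synthetase family, stood at 1.20, 2.35 and 1.73 in icKO, against 1.21, 0.95 and 1.47 in controls. Its difference was 0.55 ± 0.30 (adjusted p = 0.177), or 0.83 and 0.0444 without icKO heart 1. Oas1a and Oas2, synthetases of the signal that activates RNase L, differed by 0.31 ± 0.31 (adjusted p = 0.437) and 0.12 ± 0.32 (adjusted p = 0.781). Oas1a reached 2.68 in icKO heart 2 and lay between 1.46 and 1.99 on the other 5 arrays. Oas2 reached 2.50 in icKO heart 2 and lay between 1.38 and 2.07 elsewhere. Ifih1, the cytosolic sensor of long double-stranded RNA, stood at 0.40, 1.14 and 0.70 in icKO, against 0.25, 0.05 and 0.51 in controls, a difference of 0.48 ± 0.22 (adjusted p = 0.118). Rtp4, a zinc-finger antiviral gene, differed by 0.24 ± 0.16 (adjusted p = 0.269).

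The remaining type I genes had differences close to 0 or below it. Ifi44, of unsettled biochemical role, had the widest 95% interval among them, from -1.07 to 1.1 around 0.02. It stood at -2.05, -0.62 and -1.66 in icKO, against -1.36, -2.14 and -0.90 in controls, so both the highest and the second lowest value were icKO hearts. Parp9, of the ADP-ribosyltransferase family, and its partner Dtx3l, a ubiquitin ligase, differed by 0.07 ± 0.17 and -0.23 ± 0.21. Xaf1, a pro-apoptotic gene, Bst2, which tethers virions to the cell surface, and Ifi35 differed by -0.02 ± 0.20, -0.12 ± 0.25 and -0.13 ± 0.11. None of these 6 passed, with adjusted p between 0.374 and 0.978. Rsad2, which makes a chain-terminating nucleotide, stood at 2.05, 1.41 and 1.04 in icKO, against 1.75, 1.70 and 2.02 in controls. Its icKO heart 1 was above every control and the other icKO hearts below. The difference was -0.33 ± 0.26 (adjusted p = 0.336), or -0.60 without icKO heart 1 (adjusted p = 0.0381). Parp14, another ADP-ribosyltransferase, stood at 1.56, 2.03 and 1.54 in icKO, against 1.98, 2.09 and 2.18 in controls, a difference of -0.38 ± 0.16 (adjusted p = 0.0924), or -0.54 and 0.0194 without icKO heart 2.

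None of the 10 interferon-gamma type genes was called, and 7 of them had a negative difference, as did 13487 of 22278 features. Their median difference was -0.20, and 0.15 with spike-in scaling. Gbp2, Gbp3 and Gbp7 are guanylate-binding proteins that attack vacuoles of intracellular microbes. Gbp2 stood at 0.99, 1.92 and 1.15 in icKO, against 1.75, 1.59 and 2.07 in controls. Its icKO heart 2 lay within the control range and hearts 1 and 3 below it. The differences were -0.45 ± 0.27 for Gbp2 (adjusted p = 0.208), -0.26 ± 0.23 for Gbp3 (adjusted p = 0.381) and -0.38 ± 0.22 for Gbp7 (adjusted p = 0.193). Gbp2 was called without icKO heart 2, at -0.73 (adjusted p = 0.0262). Igtp, Iigp1 and Irgm1 are immunity-related GTPases of the same defence. Igtp stood at 1.37, 1.89 and 1.23 in icKO, against 1.64, 1.69 and 1.91 in controls, a difference of -0.25 ± 0.19 (adjusted p = 0.318), or -0.45 and 0.0485 without icKO heart 2. Iigp1 stood at 1.05, 0.79 and 0.35 in icKO, against 0.39, 0.49 and 0.45 in controls, so heart 1 was the highest and heart 3 the lowest of all. Its difference was 0.28 ± 0.18 (adjusted p = 0.246), or 0.47 and 0.0396 without icKO heart 3, and a second probe gave 0.49. Irgm1 had the narrowest spread of the set, with values from 1.14 to 1.35 on all 6 arrays and a 95% interval of its difference from -0.24 to 0.26.

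Antigen processing and the transcription factor Irf1 made up the rest of the interferon-gamma type. Irf1, itself an early target of interferon-gamma, stood at 2.82, 2.91 and 2.38 in icKO, against 2.89, 2.60 and 3.09 in controls. The groups overlapped, with a difference of -0.16 ± 0.19 (adjusted p = 0.534). Psmb8 and Psmb9, catalytic subunits of the immunoproteasome, differed by -0.08 ± 0.19 (adjusted p = 0.742) and -0.26 ± 0.24 (adjusted p = 0.412). Psmb10, another catalytic subunit of the immunoproteasome but not in the set, was called lower, at -0.54 ± 0.17 (adjusted p = 0.0389). Its result under other settings is not given here. The catalytic subunits of the standard proteasome, Psmb5, Psmb6 and Psmb7, differed by -0.32 ± 0.09 (adjusted p = 0.0265), -0.16 ± 0.10 (adjusted p = 0.222) and -0.30 ± 0.09 (adjusted p = 0.0332). The calls of Psmb5 and Psmb7 were lost without any 1 of the 6 arrays (adjusted p of 0.0519 to 0.0787 and 0.0536 to 0.0953). With quantile scaling Psmb5 was at 0.04 and Psmb7 at -0.21, and with spike-in scaling they were at 0.03 and 0.05, not called. Tap1, a subunit of the peptide transporter, stood at -1.80, -1.64 and -2.26 in icKO, against -2.51, -2.15 and -1.79 in controls, a difference of 0.25 ± 0.23 (adjusted p = 0.422).

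Single hearts stood apart within both groups for most of these genes. Heart 2 of the icKO group was the highest of the 3 icKO hearts for 31 of the 33 genes, 22 of 23 type I and 9 of 10 interferon-gamma type, or 93.9%, against 32.6% of all features. The exceptions were Rsad2 and Iigp1, for which heart 1 was the highest. Among the controls, heart 2 was the lowest for 25 of 33 genes, or 75.8%, against 43.6% of all features, and heart 3 was the highest for 27 of 33, or 81.8%, against 32.6%. The median SD of a gene within icKO was 0.37 over the 33 genes and 0.16 over all features, and within controls 0.23 and 0.14. The residual SD of 31 of the 33 genes was above the median of all features, 0.31 at the median against 0.18. No test was made of these counts, since genes of 1 array are not independent replicates.

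**Figure D2:**
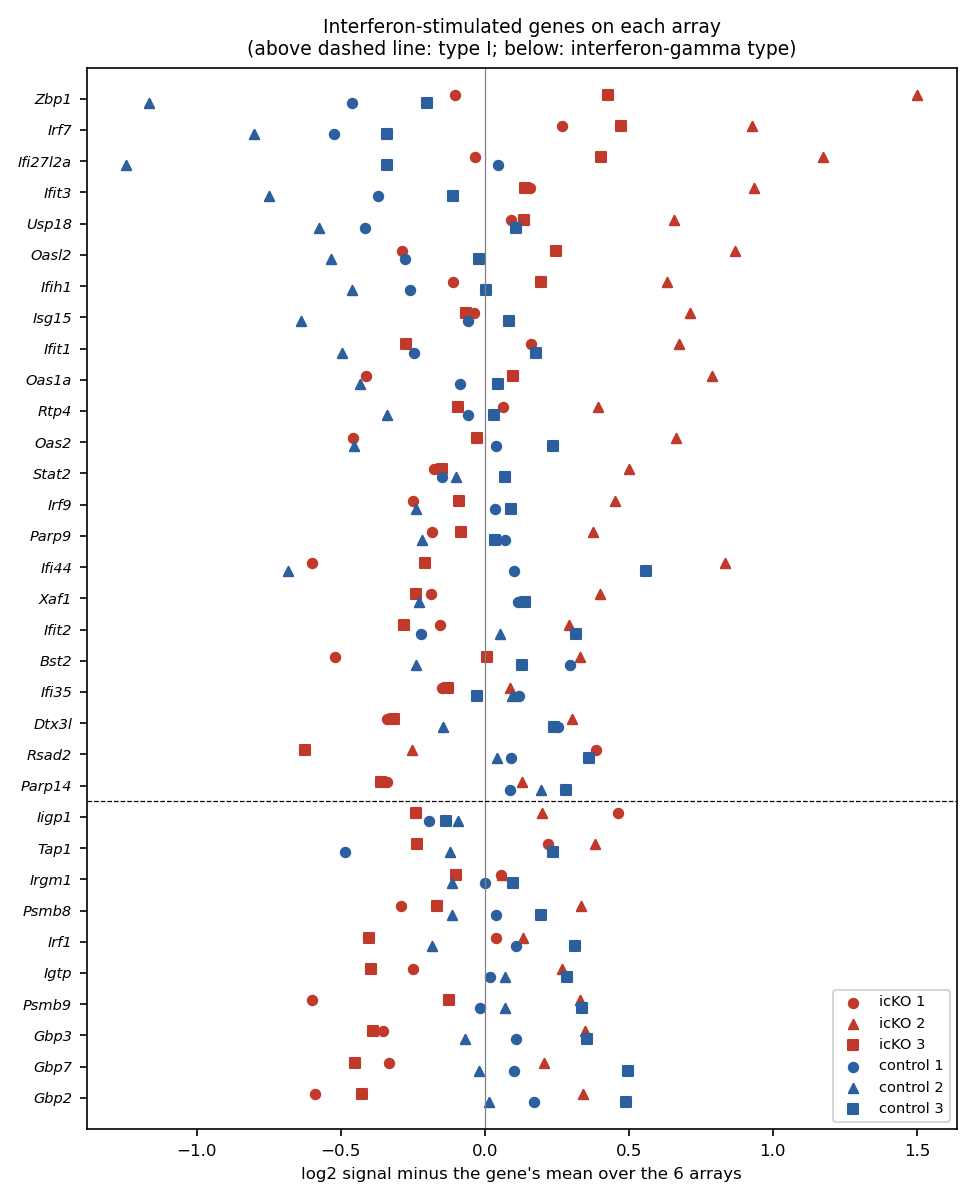
Level of each of the 33 genes on each of the 6 arrays, as log2 signal minus the gene's mean over the arrays (x axis), icKO in red and control in blue, one marker shape per replicate number. The triangles show icKO heart 2 as the highest icKO value for 31 of 33 genes and control heart 2 as the lowest control value for 25 of 33.

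Removing icKO heart 2 changed which genes passed. Without it Irf7 alone was called higher, and Parp14, Gbp2 and Igtp were called lower. Without icKO heart 1, Irf7, Oasl2 and Zbp1 were called higher and Rsad2 lower. Without icKO heart 3, Irf7 and Iigp1 were called higher. Without control heart 1 or control heart 2, Irf7 alone was called, and without control heart 3, Irf7 and Usp18 were. The median difference over the 33 genes was -0.13 without icKO heart 2 and 0.18 without icKO heart 1, against 0.07 with all arrays. The median over all features was -0.14 in each of these fits. Over the removals of single arrays, 33.9% to 40.8% of all features were called. Irf7 was called without any 1 array, with differences of 0.93 to 1.25 and adjusted p of 0.00846 to 0.0228.

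The pattern of single hearts followed the row of the slide on which an array lay. All 6 arrays were on 1 slide, and the position code in the file headers puts icKO heart 2 and control hearts 1 and 3 in row 1, and icKO hearts 1 and 3 and control heart 2 in row 2. Columns were not balanced, 2, 3 and 3 for icKO and 1, 1 and 2 for controls, and were not tested. With group and row both in the fit, all 33 genes were lower in row 2 than in row 1, by a median of -0.46 on the log2 scale, -0.48 for type I and -0.37 for interferon-gamma type. Of all features, 56.4% were lower in row 2, with a median of -0.03. The row difference was widest for Ifi44 (-1.13), Zbp1 (-1.09) and Ifi27l2a (-1.04) and narrowest for Iigp1 (-0.01), Rsad2 (-0.02) and Ifi35 (-0.09). The row term passed the threshold for 0 of the 33 genes and 0 of all features in limma. Whether the row is the array's place or hearts that differ and happen to lie in that row cannot be told apart here.

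With the row as a block, 9 genes were called higher in icKO and none lower, and all 9 were type I. They were Irf7 at 1.27 ± 0.12 (SE; limma, Benjamini-Hochberg adjusted p = 0.00218), Ifit3 at 1.04 ± 0.13 (adjusted p = 0.00399), Zbp1 at 1.58 ± 0.21 (adjusted p = 0.00462) and Ifi27l2a at 1.37 ± 0.18 (adjusted p = 0.00448). Isg15 followed at 0.64 ± 0.10 (adjusted p = 0.00793), Usp18 at 0.75 ± 0.17 (adjusted p = 0.0206), Ifih1 at 0.63 ± 0.15 (adjusted p = 0.0250), Oasl2 at 0.76 ± 0.21 (adjusted p = 0.0367) and Rtp4 at 0.36 ± 0.11 (adjusted p = 0.0434). Over all features the same fit called 40.2%, 3367 higher and 5585 lower. In row 1, icKO heart 2 against control hearts 1 and 3 gave a median difference of 0.53 over type I genes, positive in 21 of 23, and 0.12 over interferon-gamma type genes, positive in 8 of 10. In row 2, icKO hearts 1 and 3 against control heart 2 gave 0.28 over type I genes, positive in 16 of 23, and -0.21 over interferon-gamma type genes, positive in 4 of 10. All features had medians of -0.14 in row 1 and -0.13 in row 2, and 8735 and 9203 of 22278 were positive. The blocked fit combines both row differences, so the row differences of the 9 genes it called are no separate support. They ran from 0.40 for Rtp4 to 1.83 for Zbp1 in row 1 and from 0.32 for Rtp4 to 1.43 for Ifi27l2a in row 2.

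**Figure D3:**
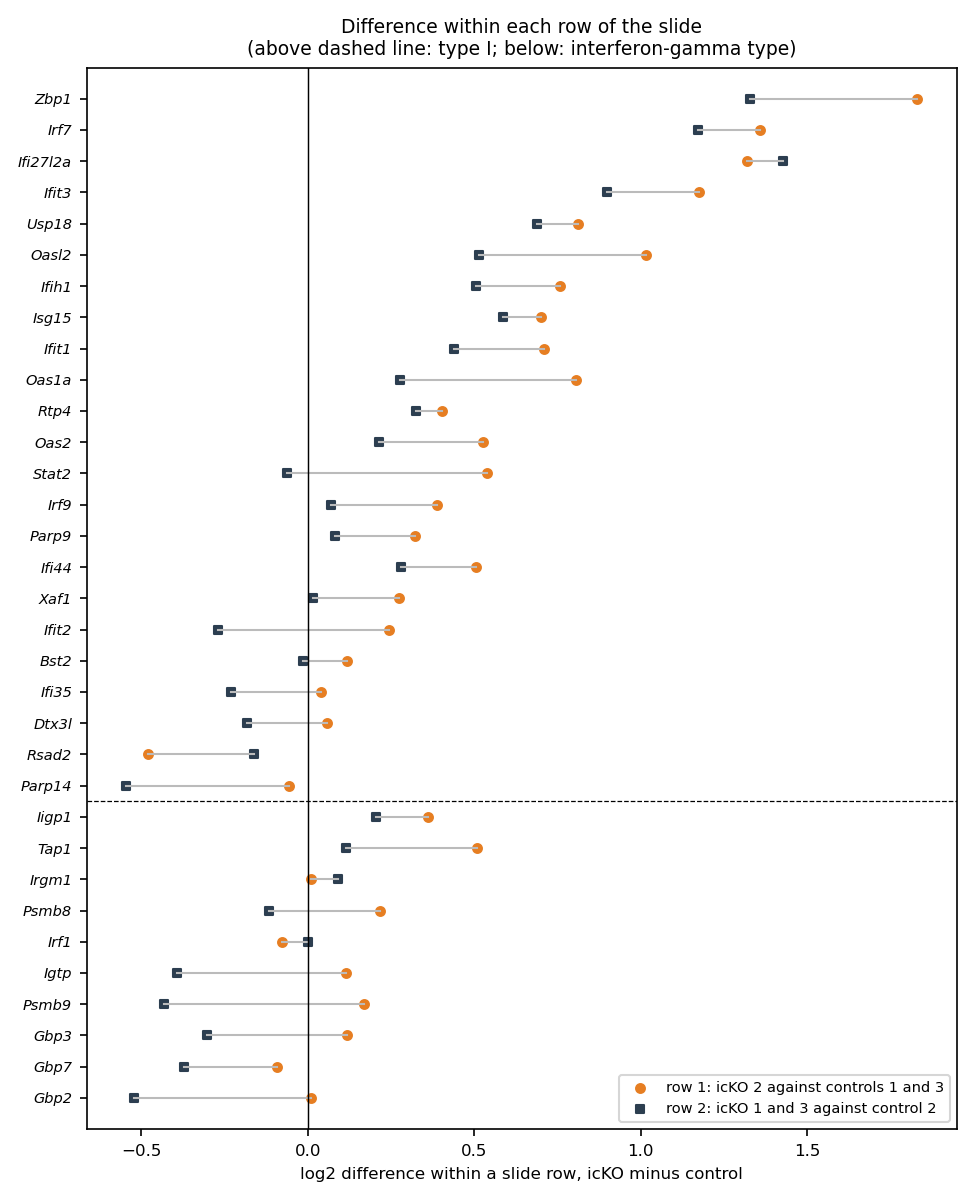
Log2 difference, icKO minus control (x axis), of each of the 33 genes within each row of the slide. Circles are row 1 (icKO heart 2 against control hearts 1 and 3) and squares row 2 (icKO hearts 1 and 3 against control heart 2), and Irf7, Ifit3, Zbp1 and Ifi27l2a lie between 0.90 and 1.83 in both.

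Both kinds of gene were then set against each other within each array, which takes out the array's scaling. The mean log2 level of the 23 type I genes was 1.08, 1.80 and 1.18 in icKO hearts 1, 2 and 3, against 1.14, 0.81 and 1.30 in control hearts 1, 2 and 3. The mean of the 10 interferon-gamma type genes was 0.80, 1.22 and 0.67 in icKO, against 0.95, 0.91 and 1.23 in controls. Heart 2 of the icKO group was the highest in both means, and each mean overlapped between the groups. The type I mean less the interferon-gamma type mean was 0.28, 0.57 and 0.51 in icKO, against 0.19, -0.10 and 0.07 in controls. All 3 icKO hearts lay above all 3 controls, with icKO heart 1 and control heart 1 the nearest to each other. The average was 0.45 ± 0.16 in icKO and 0.05 ± 0.14 in controls (SD, n = 3 each), 0.40 higher in icKO. Leaving out single arrays moved that difference between 0.33 and 0.49. The size of the gap within an array depends on the probes, so only its change between arrays is read, and no test was made because the genes were grouped by name with results of these data known.

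**Figure D4:**
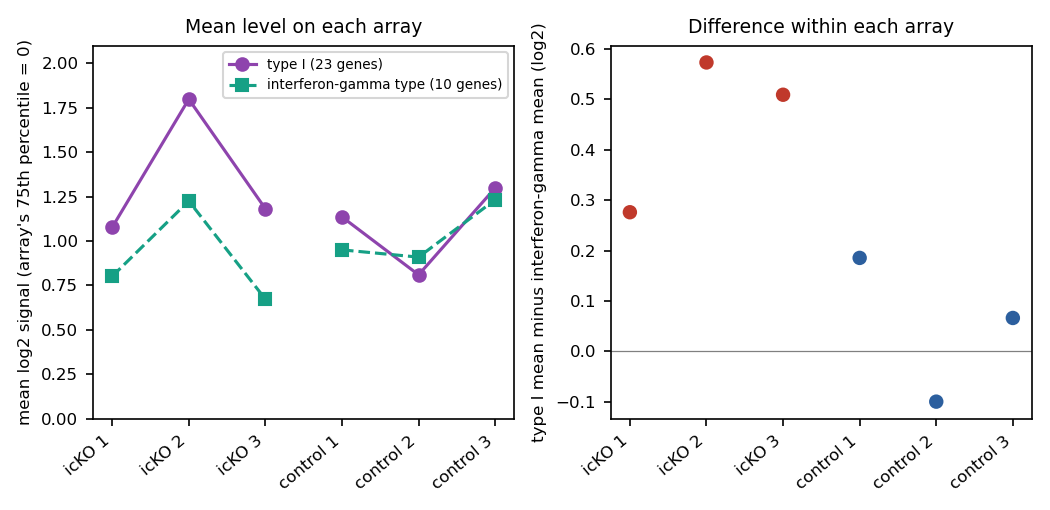
Left, mean log2 level of the 23 type I genes (circles) and the 10 interferon-gamma type genes (squares) on each array, icKO then control. Right, the type I mean minus the interferon-gamma type mean on each array, which ranges over 0.28 to 0.57 in icKO hearts and -0.10 to 0.19 in control hearts.

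The genes upstream of the response were read from lists of the pathway. Of 16 listed interferons and inducing cytokines, 1 could be tested, Ifnl3, at -0.31 ± 0.26 (adjusted p = 0.374). It was called lower with normexp (-0.41, adjusted p = 0.0193) and without control heart 3 (-0.61, adjusted p = 0.0224), and was at 0.046 with spike-in scaling. Another 12, among them Ifnb1 and Ifng, were not well above background on all 3 arrays of either group, and 3 had no matched probe. Of 20 receptors and signalling genes tested, 4 were called higher and 3 lower in icKO, a share of 35% against 44.8% of all features, or 11 higher and 1 lower with spike-in scaling. The type I receptor chains Ifnar1 and Ifnar2 differed by 0.01 ± 0.11 (adjusted p = 0.954) and 0.09 ± 0.09 (adjusted p = 0.441). The interferon-gamma receptor chains were called in opposite directions: the ligand-binding Ifngr1 stood at 4.63, 4.62 and 4.62 in icKO, against 4.05, 3.58 and 3.62 in controls, and the signalling chain Ifngr2 at 3.46, 4.02 and 4.14 in icKO, against 5.40, 5.39 and 5.41 in controls. Neither gene's groups overlapped. Ifngr1 rose by 0.87 ± 0.14 (adjusted p = 0.00454) and Ifngr2 differed by -1.53 ± 0.19 (adjusted p = 0.00159), and both were called under every setting tried.

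Downstream of the receptors, Jak1 and Tyk2, the kinases bound to the type I receptor chains, differed by 0.12 ± 0.12 (adjusted p = 0.432) and -0.17 ± 0.09 (adjusted p = 0.175). Irf5, an interferon regulatory factor of leukocytes, rose by 1.08 ± 0.17 (adjusted p = 0.00380), and the phosphatase gene Ptpn11 by 0.60 ± 0.10 (adjusted p = 0.00397). Of 18 nucleic acid sensing genes, 3 were called higher and 4 lower, a share of 38.9% against 44.8% of all features. With median scaling they were 3 higher and 2 lower, and with spike-in scaling 9 higher and 1 lower. Traf3 and Myd88, adaptors of the sensors, differed by 0.55 ± 0.13 (adjusted p = 0.0174) and 0.45 ± 0.11 (adjusted p = 0.0187). Rnaseh2a, a subunit of the RNase that clears RNA from DNA, differed by -0.72 ± 0.10 (adjusted p = 0.00247), and Mavs, the adaptor of Ifih1, by -0.64 ± 0.11 (adjusted p = 0.00448), which spike-in scaling brought to -0.29 (adjusted p = 0.132). Traf3 lost its call without icKO heart 2 or control hearts 1 or 2 (0.53, 0.53 and 0.54), and Myd88 without icKO heart 2 or control hearts 2 or 3 (0.38, 0.45 and 0.41).

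Of 37 other type I interferon-stimulated genes tested, 13 were higher and 5 lower in icKO, a share of 48.6% that is near the 44.8% of all features, with a median difference of 0.18. Of 17 other interferon-gamma type genes, 3 were higher and 6 lower (52.9%), with a median of -0.25. Of 19 antigen presentation genes, 4 were higher and 3 lower (36.8%), with a median of 0.38. With spike-in scaling these counts were 15 higher and 1 lower, 4 higher and 1 lower, and 7 higher and 1 lower. Ifi204, a DNA-sensing gene of the Ifi200 family, differed by 1.31 ± 0.16 (adjusted p = 0.00166) and Ifitm2, which blocks viral entry, by 0.88 ± 0.13 (adjusted p = 0.00346). Ms4a4c differed by -0.70 ± 0.11 (adjusted p = 0.00321), but the mean of its kept probes gave 0.49 (adjusted p = 0.0486). Sp110, a nuclear body protein, differed by -0.59 ± 0.10 (adjusted p = 0.00477), and its kept probes averaged -0.03 (adjusted p = 0.822).

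Gbp6, a guanylate-binding protein, stood at 1.94, 1.69 and 1.82 in icKO, against 0.44, 0.17 and 0.43 in controls, with a difference of 1.47 ± 0.12 (adjusted p = 0.000491). Unlike Gbp2, it had groups that lay far apart. Icam1, a leukocyte adhesion molecule, differed by 1.55 ± 0.22 (adjusted p = 0.00255). Nos2, the inducible nitric oxide synthase, stood at -1.35, -1.01 and -1.51 in icKO, against 0.85, 1.05 and 1.24 in controls, a difference of -2.33 ± 0.17 (adjusted p = 0.000319). Cd274, the checkpoint ligand PD-L1, differed by -1.08 ± 0.24 (adjusted p = 0.0129), which spike-in scaling brought to -0.73 (adjusted p = 0.0693). The class I heavy chain H2-K1 differed by 0.76 ± 0.19 (adjusted p = 0.0202) and H2-T23 by 0.59 ± 0.16 (adjusted p = 0.0281). Psme1, a proteasome activator subunit, differed by -0.81 ± 0.09 (adjusted p = 0.00116) and H2-Q4 by -0.30 ± 0.09 (adjusted p = 0.0323). H2-K1 lost its call without control hearts 1 or 2 (0.75 and 0.70), H2-T23 without any array but icKO heart 3 (0.47 to 0.61), and H2-Q4 without any 1 array (-0.33 to -0.28) and with spike-in scaling (0.05). Class I and guanylate-binding genes are close copies of each other, and cross-hybridisation of their probes was not checked.

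**Figure D5:**
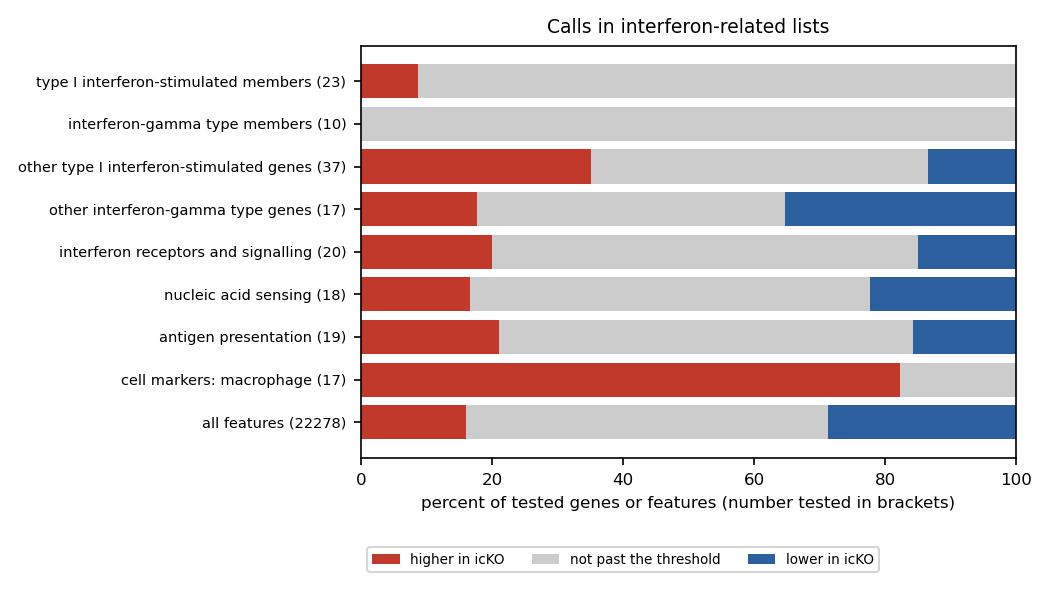
Percent of the tested genes of each list (y axis, number tested in brackets) that were called higher in icKO (red), called lower (blue) or not past the threshold (grey), limma with Benjamini-Hochberg adjusted p under 0.05. The 23 type I genes had 2 calls and the 10 interferon-gamma type genes 0, and the bar of all features shows 16% higher and 28.7% lower.

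Markers of cell types were read with the same test, in which 44.8% of all features were called, 16% higher and 28.7% lower in icKO. Of 17 macrophage markers 14 were higher in icKO and 0 lower. Their summed signal, in units of the array's 75th percentile, was 171, 214 and 184 in icKO hearts 1, 2 and 3, against 111, 84.0 and 89.0 in control hearts 1, 2 and 3. For 15 of the 17, icKO heart 2 was the highest icKO heart, against 32.6% of all features. In slide row 2, 15 of 17 were lower, against 56.4% of all features. Row 2 was also lower for 11 of 12 fibroblast markers and 19 of 19 antigen presentation genes, but for 3 of 12 cardiomyocyte markers. Of 12 fibroblast markers 8 were higher and 1 lower, with sums of 946, 972 and 886 in icKO, against 611, 418 and 452 in controls. Of 12 cardiomyocyte markers 11 were lower in icKO, 8 with spike-in scaling and 5 with quantile scaling, with sums of 6897, 6159 and 6779 in icKO, against 11957, 9988 and 10809 in controls. The defining cardiomyocyte genes Myh6, Myl2 and Tnnt2 were measured on every array. The part of these markers in the values of the interferon-stimulated genes was not tested.

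Of 6 monocyte and neutrophil markers tested, 4 were higher in icKO and 0 lower (66.7%, against 44.8% of all features). The median difference was 2.62. The neutrophil alarmin S100a8 stood at 2.50, 0.59 and 0.55 in icKO, against -1.65, -2.08 and -2.70 in controls, so icKO heart 1 was the highest. S100a8, S100a9 and Retnlg differed by 3.35, 3.02 and 3.49, and Plac8 by 1.19 (adjusted p of 0.00215 to 0.00703). Retnlg was well above background on 3 icKO and 0 control arrays, so it entered the test through icKO alone. The size of its difference rests on control signal near background. Against the lowest signal well above background on each control array, it was at least 5.47-fold higher in icKO. With normexp Retnlg was at 0.88 (adjusted p = 0.0721). The summed signal of the list, 137, 107 and 107 in icKO, against 120, 128 and 123 in controls, rests mostly on the bright probe of Csf3r, the neutrophil growth factor receptor, at -0.27 (adjusted p = 0.0526). Ccr2, Cxcr2, Mmp8 and Ltf were not well above background on all arrays of either group.

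Of 8 T and NK cell markers tested, 2 were higher and 3 lower, a share of 62.5% against 44.8% of all features. Their sums were 4.72, 4.84 and 4.48 in icKO, against 6.75, 5.44 and 5.63 in controls. Cd3e, Cd4 and Nkg7 were called lower at -0.49, -0.49 and -0.39, and Lck and Il2rb higher at 0.76 and 0.74. Il2rb was well above background on 3 icKO and 0 control arrays, so it entered the test through icKO alone. Against the lowest signal well above background on each control array, it was at least 1.36-fold higher in icKO. With median or spike-in scaling the list had 2 higher and 0 lower, and with normexp 0 higher and 3 lower. Cd3e lost its call without icKO hearts 1 or 3 or control hearts 1 or 3 (-0.54 to -0.38), Cd4 without icKO heart 2 (-0.43), Nkg7 without any array but icKO heart 1 (-0.45 to -0.30), and Il2rb without icKO hearts 2 or 3 or control hearts 2 or 3 (0.63 to 0.73). Another 6, Cd3d, Cd3g, Cd8a, Cd8b1, Klrb1c and Ncr1, were dim in the sense above. Of 6 B cell and plasmacytoid dendritic cell markers tested, 0 were called, against 1 higher with median scaling, 2 higher with spike-in scaling and 2 lower with normexp. Their sums, 107, 89.5 and 93.4 in icKO, against 111, 120 and 113 in controls, rest mostly on the bright probe of Siglech, a plasmacytoid surface receptor, at -0.29 (adjusted p = 0.0816), and Ms4a1, Cd79a, Pax5, Clec9a and Xcr1 were dim. Of 14 endothelial markers 1 was higher and 4 lower, a share of 35.7% against 44.8% of all features. These counts were 3 higher and 0 lower with spike-in scaling and 2 higher and 1 lower with median scaling. The endothelial sums were 752, 568 and 563 in icKO, against 669, 636 and 641 in controls.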

How the data were processed

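Ventricle RNA was labelled with Cy3 on 1-colour Agilent arrays of 3 Tead1 icKO and 3 control mice, per the labels' protocols. The authors' deposited scanner output gives spot intensity from Feature Extraction 11.0.1.1 on design 028005 for mouse build mm9 (per the file headers). Version 9.1 stands in the submitters' processing notes. Per the file headers, background was subtracted within each array and arrays were not scaled to each other. A value table that the authors deposited, also linear intensity, was an alternative: it correlated with the scanner log2 values at 0.9995 or more, and its medians were 18.42, 18.42 and 18.4 for icKO and 18.42, 18.37 and 18.47 for controls. No source used here gives its scaling.

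The log2 signal was taken less the 75th percentile of the array's non-control probes, without outlier spots, averaging repeated spots. Probes above background on every array of icKO or of control were tested, 26152 of 55681. A RefSeq table of GRCm38.p6 named 26582 probes of 20145 genes by unversioned accession, for names only, and the brightest tested probe stands for a gene. The fit used limma 3.58.1 in R 4.3.3 (lmFit, eBayes). Benjamini-Hochberg adjustment ran over 22278 features, with a threshold of 0.05. The steps were tested on simulated data. The number of arrays limits the precision, and p-values measure the spread between 3 hearts per group.

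The genes of the set and the pathway and marker lists were chosen with earlier results of these data known. The text names every gene of the set, a fixed group of receptor, signalling and proteasome genes, and, of each pathway list, the genes with the smallest p, up to 2 in each direction. Ifnl3, Psmb10 and the marker genes were named after their values were seen. A few genes that this rule takes are not reported here. Alternatives were normexp on the median signal (chosen after seeing that the files hold no mean signal), quantile, median and spike-in scaling, the authors' table, other filters, probe means, single probes, robust eBayes with a trend, weights for arrays, blocks for replicate number and slide row, and leaving out each array.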

Additional observations from a re-analysis of the deposited data

How the results depend on the processing

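With 3 hearts per group, the spread between hearts limits what could be called. Of 20 other settings, each applied to the 33 genes, 576 values kept their direction and their side of the threshold, 25 gained a call, 8 lost one and 51 changed sign. Genes called higher numbered 2 as reported. They numbered 4 with normexp (all type I), 8 with spike-in scaling (7 type I and 1 interferon-gamma type), 1 with no filter on dim probes (type I), 4 with array weights (type I) and 9 with slide row as a block (type I). Over the removals of single arrays they ranged from 1 to 3 higher and 0 to 3 lower in the whole set, 1 to 3 higher and 0 to 1 lower among type I genes, and 0 to 1 higher and 0 to 2 lower among interferon-gamma type genes. Of all features, 3573 of 22278 were called higher as reported, 3658 with normexp and 6660 with spike-in scaling. Array weights gave 3777, slide row as a block 3367, and no filter 2127 of 49244. With no filter, 6123 of all features were called in place of 9974. Of all calls, 35.8% were higher in icKO as reported, 43.5% with quantile, 54.6% with median and 74.1% with spike-in scaling. Median and spike-in scaling added 0.16 and 0.35 to every log2 difference. Where signs changed, the difference had not been called, apart from Psmb5, H2-Q4, Psmb7, Ms4a4c and Il2rb, and the cause was not tested beyond these shifts.

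Signs changed as follows, as log2 differences, icKO minus control. Normexp gave -0.0045 for Ifi44, 0.045 for Ifi35, 0.059 for Xaf1, 0.0098 for Psmb8, -0.038 for Tap1, -0.010 for Il2rb and 0.023 for Psmb6. Quantile scaling gave 0.0057 for Xaf1, 0.041 for Psmb5 and 0.021 for Psmb6, and the values the authors deposited gave 0.0047, 0.040 and 0.023 for the same genes. Median scaling gave 0.059 for Ifit2, 0.031 for Ifi35, 0.035 for Bst2, 0.14 for Xaf1, 0.00069 for Irf1, 0.075 for Psmb8 and 0.00049 for Psmb6. Spike-in scaling gave 0.25 for Ifit2, 0.23 for Ifi35, 0.023 for Rsad2, 0.23 for Bst2, 0.12 for Dtx3l, 0.34 for Xaf1, 0.20 for Irf1, 0.090 for Gbp3, 0.10 for Igtp, 0.27 for Psmb8 and 0.090 for Psmb9. It also gave 0.046 for Ifnl3, 0.18 for Tyk2, 0.034 for Psmb5, 0.20 for Psmb6, 0.053 for Psmb7, 0.054 for H2-Q4, 0.086 for Csf3r and 0.059 for Siglech. Slide row as a block gave 0.051 for Bst2, 0.14 for Xaf1 and 0.050 for Psmb8. The mean of a gene's probes gave -0.032 for Irgm1 and 0.49 for Ms4a4c, and array weights gave -0.031 for Irgm1 and -0.016 for Ifnar1.

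Leaving out single arrays gave ranges that cross 0 for Irf9 (-0.13 to 0.22), Stat2 (-0.10 to 0.23), Ifit2 (-0.27 to 0.037), Ifi44 (-0.40 to 0.32), Oas1a (-0.00017 to 0.60), Oas2 (-0.18 to 0.38), Bst2 (-0.32 to 0.11), Parp9 (-0.10 to 0.18), Xaf1 (-0.22 to 0.10), Irf1 (-0.29 to 0.0070), Irgm1 (-0.043 to 0.062), Psmb8 (-0.27 to 0.044) and Ifnar1 (-0.057 to 0.077).

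With the replicate number as a replicate block, 1 gene of the set was called higher, Irf7, which is type I, and Ifit3 had an adjusted p of 0.108. The deviations of icKO and control arrays with the same number correlated at -0.05, -0.13 and 0.0012, so the numbers were not taken to pair the hearts. The planned normexp on a mean signal column was not run because the files hold none, and slide as a block was not run because all arrays lay on 1 slide.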
